A study of Mus musculus with 47 samples.

Results

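Basal and luminal epithelial cells of the mouse mammary gland were compared on day 3.5 of pregnancy (P3.5) in 6 RNA-seq libraries, 3 of basal and 3 of luminal cells, out of 46 libraries with values in the series. The 6 were taken by their labels and paired by replicate number (2, 4 and 6), because the basal and luminal libraries of a number came from the same sort. All groups were untransformed glands of FVB/N mice with no treatment and no introduced allele. The P3.5 mice had been mated as young adults and were staged by vaginal plug. Luminal cells were sorted as lineage-negative CD24+ CD29lo and basal cells as lineage-negative CD24+ CD29hi. The antibodies of the negative selection included those to CD45, CD31 and CD140a, the last listed by the paper with a human antigen. The groups that P3.5 was set against were the resting gland, meaning 18 libraries of mice aged 10 weeks (W10) or 4 months (M4) and of mice 4 weeks after weaning (Iw4), and 5 libraries of pregnancy day 14.5 (P14.5), of which 2 were basal.

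Each sort pooled the glands of several mice, so a library describes a pool and not an animal, and each gate holds more than 1 kind of cell. The glands were digested to organoids, which were kept cold overnight before they were dissociated to single cells, and a small amount of RNA was amplified before sequencing. Within a sort the basal and luminal libraries shared the sort date, and all 6 libraries shared a lane and an amplification batch. Cell type was therefore compared within batches, whereas lane separated P3.5 from every other time point. Amplification batch separated P3.5 from every other time point except P14.5. The luminal libraries held 8551434 to 11148617 reads on genes and the basal libraries 10984471 to 13818887. Values are CPM, the authors' read counts scaled to an effective library size, and 3 reads, taken as the smallest measurable level, were worth 0.17 to 0.24 CPM. The reads carry no molecular identifiers and may repeat a molecule, so the level accounts for counting error alone.

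The mammary epithelium has an inner layer of luminal cells, which line the ducts and make milk, and an outer layer of basal cells, most of which are myoepithelial. Myoepithelial cells use the contractile apparatus of smooth muscle to squeeze milk along the ducts when oxytocin is released, and they lay down much of the basement membrane. In early pregnancy progesterone and prolactin act on hormone-sensing luminal cells, and these pass the signal to their neighbours through secreted factors such as amphiregulin, RANKL and WNT4. Both layers then divide as side branches and alveolar buds form.

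In all, 1415 of 17078 genes (8.29%) were higher in basal cells and 952 (5.57%) were higher in luminal cells, 13.9% together, at 2-fold or more and an adjusted p under 0.01 (limma). These shares are the background for the counts of called members in each gene list. Each of the 3 within-sort differences exceeded 2-fold for 1199 and 766 of them. The median difference over all genes was 0.06 on the log2 scale. Differences are basal minus luminal on log2(CPM + 1), where adding 1 pulls the difference of low genes towards 0. In such bulk samples fewer cells of a kind and less RNA per cell cannot be told apart.

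The differences reached further in the basal direction. Of the called genes, 229 were higher in basal cells by more than 4 on the log2 scale and 49 by more than 6, while 10 were higher in luminal cells by more than 4 and 0 by more than 6. The largest differences were 7.86 and -4.77. A total of 129 of the basal-higher genes lay under 3 reads in all luminal libraries, and 16 of the luminal-higher genes lay under 3 reads in all basal libraries. The summed level of 12 basal lineage genes in luminal cells was 2.15, 1.61 and 1.79% of that in basal cells in sorts 2, 4 and 6. In basal cells 14 luminal lineage genes summed to 14.2, 16 and 19.5% of their luminal level. These 14 include *Gata3* and *Grhl2*, which were not called, and *Tfap2c*, which was higher in basal cells. The paper reports low cross contamination when cells of each gate were sorted again. The part of carry-over between the gates in these levels was not tested.

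**Figure D1:**
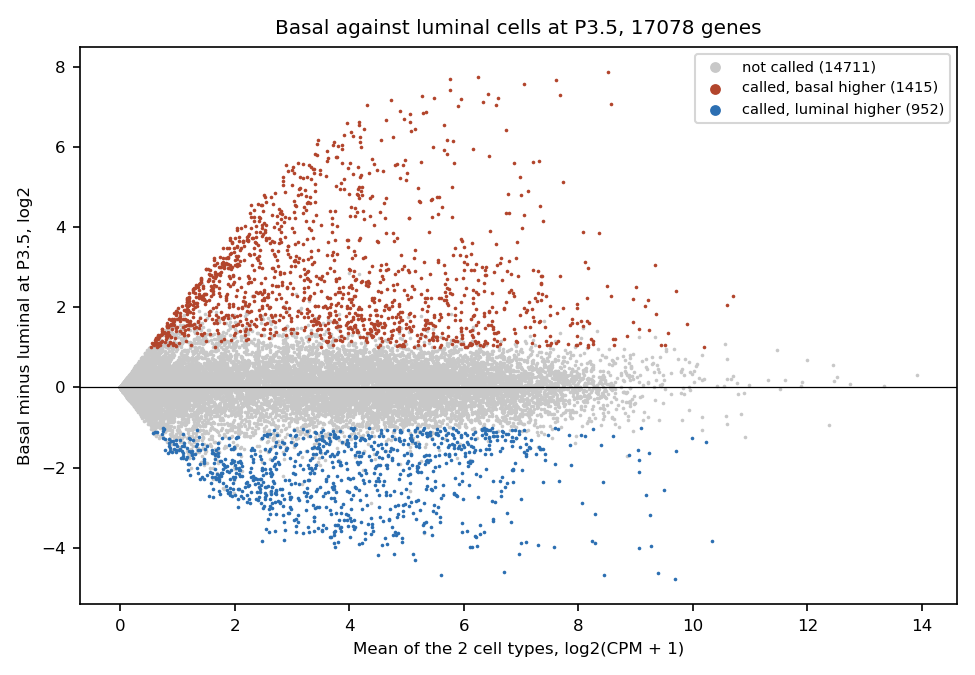
Basal minus luminal difference at P3.5 (log2, vertical axis) against the mean of the 2 cell types (log2(CPM + 1), horizontal axis) for 17078 genes, 1 point for each gene. The 1415 genes called higher in basal cells (red) reached 7.86, and the 952 called higher in luminal cells (blue) reached -4.77.

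Marker genes of other cell types were looked at first, because they bear on genes of the matrix. The summed level of 10 fibroblast markers was 62.6, 166 and 125 CPM in luminal and 457, 348 and 804 CPM in basal cells of sorts 2, 4 and 6. Its most abundant gene was *Dcn*. Basal replicate 6 had the highest levels of *Col1a1* (25.7, 15.4 and 97.9 CPM in basal cells), of *Col3a1* (25.2, 6.41 and 109 CPM) and of the pericyte gene *Rgs5* (17.8, 9.84 and 58.5 CPM). The endothelial list summed to 21.5, 22.2 and 76.5 CPM in basal and to 49.7, 39.4 and 36.2 CPM in luminal cells, with *Vwf* as its most abundant gene over the 6 libraries.

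Among these lists, 2 of 10 fibroblast genes (*Col1a2* and *Fbln1*) and 2 of 8 pericyte genes (*Cspg4* and *Pdgfrb*) were called, all basal higher, against 8.29% of all genes. Without replicate 6, an alternative chosen after seeing the data, each of the counts was 1. The loss was not particular to that sort, since *Col1a2* was not called when any 1 sort was left out (limma adjusted p 0.027 to 0.054) or without the block (0.024), and *Pdgfrb* not without sort 2 or 6 (0.025 and 0.027). With edgeR 7 fibroblast and 3 pericyte genes were called, all basal higher. None of the 10 endothelial or 9 immune genes was called by limma or by edgeR, and 0 of either list had an unadjusted p under 0.05. The leukocyte antigen gene *Ptprc* stayed at or under 1.01 CPM and the endothelial genes *Cldn5* and *Tek* at or under 1.15 CPM in every library. The lists of adipocyte, red blood cell and skeletal muscle genes were each read from under 80% of their members, since the others were not analysed here. Of the members that were, limma called *Acta1* (1.47, basal higher), though not without sort 2 or 6 (adjusted p = 0.013 and 0.012), and edgeR also called 1 red blood cell gene, luminal higher. Of 5 Schwann cell genes the myelin gene *Mbp* was called, higher in luminal cells (82.7, 134 and 64.3 CPM against 8.54, 22.7 and 8.66 CPM), while *Cdh19* reached at most 0.348 CPM.

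**Figure D2:**
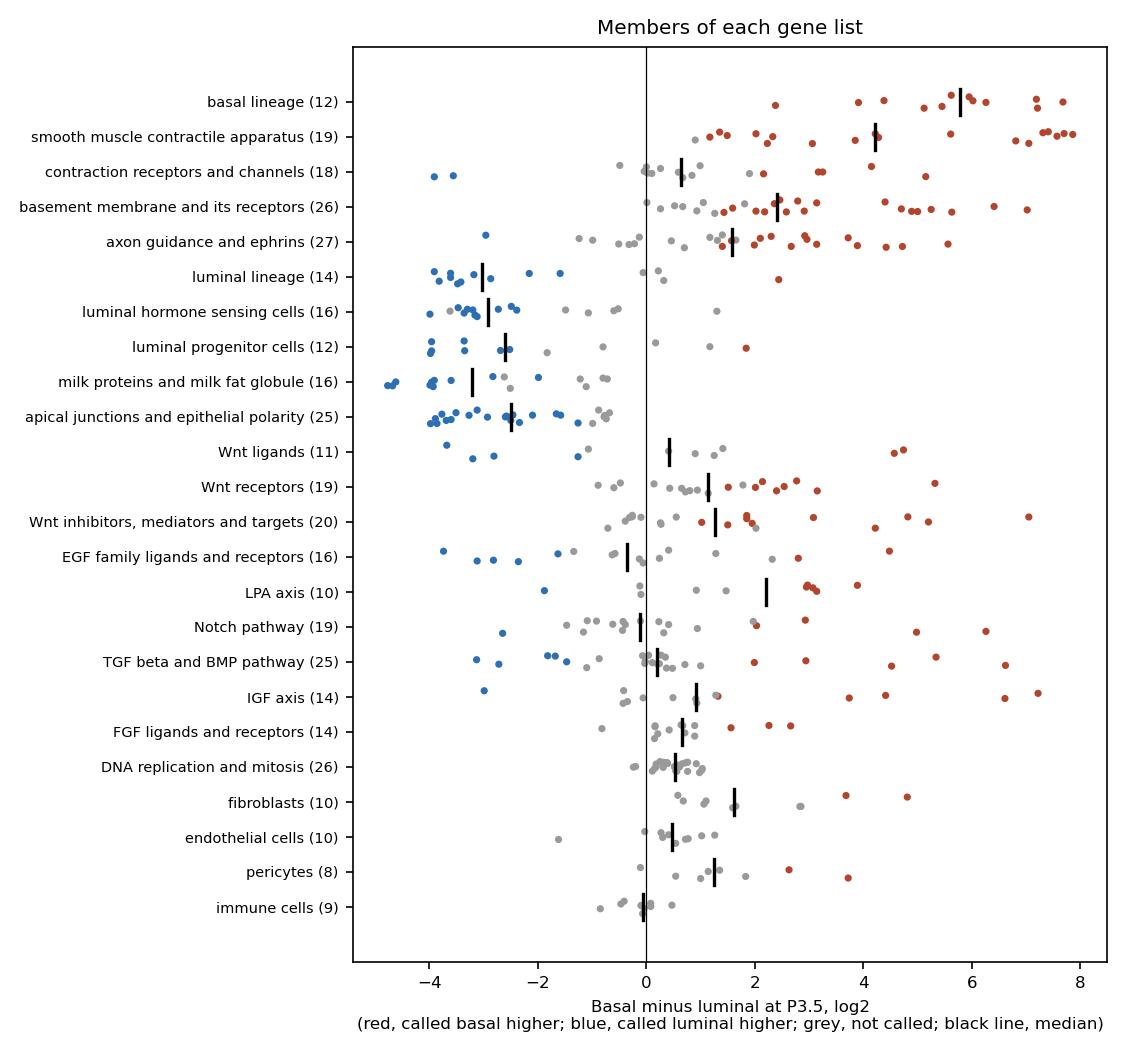
Basal minus luminal difference at P3.5 (log2, horizontal axis) of the members of 24 gene lists, 1 point for each gene, with the number of members in brackets and the list median as a black line. Every basal lineage gene lies right of 0 and is called, the milk and junction genes lie left of 0, and the 26 mitosis genes lie between -0.24 and 1.03 with no call.

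Of 19 genes of the smooth muscle apparatus, 18 were higher in basal cells, with a median of 4.22 against 0.06 over all genes. *Acta2*, the smooth muscle alpha actin, had 16.6, 23.3 and 29.8 CPM in luminal and 4826, 5793 and 5883 CPM in basal cells of sorts 2, 4 and 6. The groups were far apart, with a log2 difference of 7.86 (SE 0.55, limma adjusted p = 1.4e-13, n = 3 sorts). This and every other limma SE pools the spread within all 16 conditions of the series. *Cnn1* encodes calponin, which damps myosin activity. It had 1.3, 3.9 and 3.24 CPM in luminal and 558, 897 and 862 CPM in basal cells (7.70, SE 0.63). *Myh11*, the smooth muscle myosin heavy chain, had 6.75, 8.08 and 11.1 CPM against 1915, 1976 and 1552 CPM (7.57, SE 0.58).

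The parts that switch the motor on moved with it. The regulatory light chain gene *Myl9* had 1.79, 3.83 and 4.07 CPM in luminal and 661, 686 and 742 CPM in basal cells (7.41, SE 0.60). *Mylk*, the kinase that phosphorylates this light chain, was higher by 7.31 (SE 0.52). The tropomyosin *Tpm2* differed by 7.05 and the gamma actin *Actg2* by 6.81, while *Tpm1*, which had 206 to 236 CPM in luminal cells, differed by 3.06. Smaller differences were found for the light chain *Myl6* (1.49) and for the transcription factor *Srf* (1.17), both present in luminal cells. *Myocd*, the coactivator of SRF in smooth muscle, was called at a low level, with at most 0.0636 CPM in luminal and 6.28, 3.06 and 2.74 CPM in basal cells. The intermediate filament gene *Des* was not called (0.90, adjusted p = 0.31). Without replicate 6, 14 of the 19 genes were called. *Myocd* and *Srf* were not called when any 1 sort was left out (limma adjusted p 0.017 to 0.072 and 0.012 to 0.027).

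SRF binds the CArG box, and genes of the contractile apparatus are its known targets. The promoters of the list were therefore searched for the box in its strict form, CCWWWWWWGG, where W is A or T. The 250 bases before the start were available for 15 of the 19 genes (RefSeq, build GRCm38.p6), and 2 of these, *Myl9* and *Srf*, held a CArG box on either strand, or 13.3%. Among 27025 promoters of the same length the share was 1.4%. The stretches are shown because these 2 are genes of the group that hold the box, which is in capitals. The *Myl9* stretch is chr2:156775214-156775463 on the plus strand, with the box starting 161 bases before the start, and the *Srf* stretch is chr17:46556163-46556412 on the minus strand, with boxes at 82 and 62 bases.
Myl9: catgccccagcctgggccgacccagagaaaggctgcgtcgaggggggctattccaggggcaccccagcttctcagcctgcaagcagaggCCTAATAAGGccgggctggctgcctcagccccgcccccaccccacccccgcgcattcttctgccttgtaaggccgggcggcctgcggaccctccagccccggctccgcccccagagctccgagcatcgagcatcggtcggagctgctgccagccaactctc
Srf: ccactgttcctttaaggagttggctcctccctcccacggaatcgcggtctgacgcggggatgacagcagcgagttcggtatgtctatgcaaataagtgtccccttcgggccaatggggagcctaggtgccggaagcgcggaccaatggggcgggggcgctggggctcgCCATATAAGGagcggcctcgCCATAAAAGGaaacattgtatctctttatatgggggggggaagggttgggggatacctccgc
A match describes these letters only. It is no evidence of binding. The other searched members held no strict match in this window, and the members with no stretch were not searched. Near matches with a G or C among the W letters were not counted. The *Acta2* stretch holds such letters, ccctatatgg and ccttgtttgg.

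Of 18 genes for receptors and channels that act on contraction, 5 were higher in basal and 2 in luminal cells, against 8.29% and 5.57% of all genes. The oxytocin receptor gene *Oxtr* had 42.2, 7.52 and 90.3 CPM in luminal and 681, 462 and 593 CPM in basal cells (4.15, SE 0.70, limma adjusted p = 1.5e-05). Its luminal level varied widely between sorts, and every basal library was above every luminal one. Both subunits of the large-conductance potassium channel were higher in basal cells, *Kcnmb1* by 5.15 and *Kcnma1* by 3.17. So was *Cacna1c*, the pore of the L-type calcium channel, by 3.25. The endothelin receptor gene *Ednrb* was called at a low level (2.16), but not when any 1 sort was left out (limma adjusted p 0.015 to 0.073) or without the block (0.01).

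On the luminal side were *Agtr1a*, an angiotensin II receptor, and *Adra1a*, an alpha-1 adrenergic receptor. *Agtr1a* had 91.1, 57.1 and 57.2 CPM in luminal and 2.66, 2.83 and 5.56 CPM in basal cells (-3.91, SE 0.57). *Adra1a* had 33.2, 21.4 and 18.3 CPM in luminal cells and at most 1.64 CPM in basal cells (-3.56, SE 0.49). The vasopressin receptor gene *Avpr1a* was not called, with 9.9, 0.373 and 6.57 CPM in basal cells. Its basal library of sort 4 was as low as the luminal ones.

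All 12 basal lineage genes were called, with a median of 5.79. *Trp63* encodes p63, the transcription factor that maintains basal epithelia. It had 1.87, 6.83 and 4.26 CPM in luminal and 905, 665 and 606 CPM in basal cells (7.19, SE 0.64). The keratin *Krt5* differed by 7.68, *Krt15* by 7.21, *Krt17* by 5.95 and *Krt14* by 5.12. *Krt14* varied most among basal libraries, with 670, 1400 and 1770 CPM. *Snai2*, a repressor of epithelial genes, differed by 6.02, *Id4* by 5.45, the cadherin gene *Cdh3* by 5.62 and the intermediate filament gene *Vim* by 3.91. The lowest was the LIF receptor gene *Lifr* (2.38), which had 45.3 to 49 CPM in luminal cells.

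Of 26 genes of the basement membrane and its receptors, 18 were higher in basal cells and none in luminal cells (median 2.41). The 2 chains of the main type IV collagen moved together. *Col4a1* had 18.8, 21.9 and 18.9 CPM in luminal and 1284, 999 and 851 CPM in basal cells (5.63, SE 0.37), and *Col4a2* had 9.02, 12.3 and 10.2 CPM against 1117, 1071 and 767 CPM (6.41, SE 0.37). The hemidesmosomal collagen gene *Col17a1* differed by 7.02, nidogen *Nid1* by 5.00, perlecan *Hspg2* by 3.14 and the anchoring fibril collagen *Col7a1* by 4.70. Basal replicate 6, which had the most fibroblast collagen RNA, was the lowest of the 3 basal libraries for each of these 6 genes. The part of fibroblast RNA in these levels was not tested. Without replicate 6 the count was also 18.

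Among laminin chains *Lama3* differed by 5.25, *Lama1* by 4.89, *Lamb1* by 2.91, *Lamb3* by 2.79 and *Lamc1* by 2.18. *Lama5* had 148, 279 and 122 CPM in luminal and 162, 259 and 124 CPM in basal cells, a difference of 0.01 (SE 0.42, adjusted p = 1) that is within the spread between sorts. Among receptors, *Itga9* (4.40), *Itga3* (2.02) and the dystroglycan gene *Dag1* (1.59) were called, whereas *Itga2* (0.26, adjusted p = 0.74), *Itgb4* (0.67, adjusted p = 0.40) and *Itga6* (1.26, adjusted p = 0.013) were not. The cytolinker gene *Plec* was not called (0.52), and *Dst* was (1.43). Without sort 2 neither *Itga3* nor *Dst* was called (limma adjusted p = 0.017 and 0.014).

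The 12 basal-higher genes with the largest difference outside the lists ranged from 6.59 to 7.74. *Col14a1*, a collagen that associates with fibrils, had 2.6, 6.13 and 3.94 CPM in luminal and 1175, 1322 and 803 CPM in basal cells. *Vcan*, a large chondroitin sulphate proteoglycan, had 12.9, 15.7 and 16.3 CPM against 3768, 2502 and 1673 CPM. *Sparc*, a collagen-binding glycoprotein, had 27.9, 27.7 and 40.2 CPM against 3825, 4875 and 4529 CPM. *Fbn1* and *Fbln2*, which encode proteins of microfibrils and elastic fibres, differed by 7.27 and 7.13, the chemokine gene *Cxcl14* by 7.18, the reelin gene *Reln* by 6.90, the small proteoglycan gene *Fmod* by 6.59 and the serpin *Serpinb11* by 6.68. *Moxd1*, *Tenm2* and *Fstl1* completed the set. Fibroblasts also make several of these products. The negative selection of the sort included CD140a, so cells that carry this antigen were meant to be left out. The paper lists that antigen as human and those of the other lineage antibodies as mouse. How far such cells were removed was not tested. The fibrillar collagen genes *Col1a1*, *Col1a2* and *Col3a1* had at most 109 CPM in any of these libraries. The fibroblast marker *Dcn* had 279, 202 and 383 CPM in basal cells of sorts 2, 4 and 6. The part of fibroblast RNA in these levels was not tested.

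**Figure D3:**
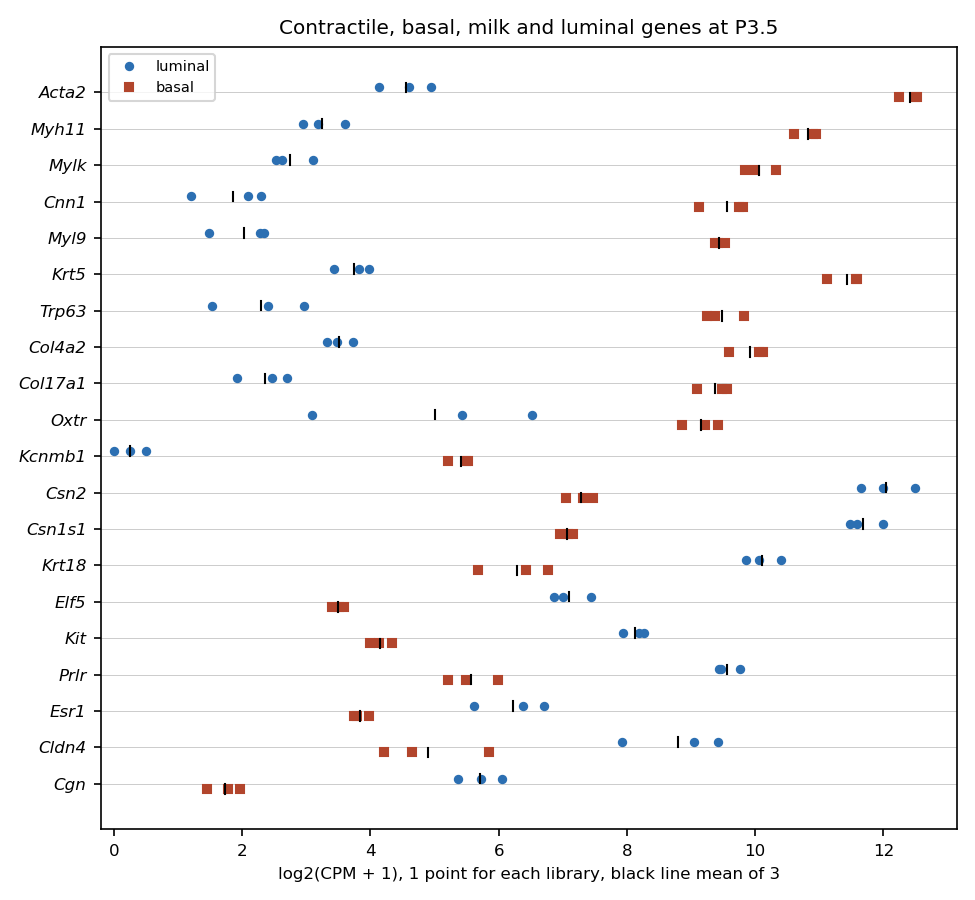
Levels of 20 genes (log2(CPM + 1), horizontal axis) in the 3 luminal (circles) and 3 basal (squares) libraries of P3.5, with the mean as a black line. The basal and luminal libraries do not overlap for any of the genes shown, and the luminal libraries spread most for *Oxtr*, from 7.52 to 90.3 CPM.

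Milk protein genes led the luminal side. Of 16 genes of milk proteins and the milk fat globule, 10 were higher in luminal cells and none in basal cells (median -3.21). *Csn2*, the beta casein gene, had 3207, 5791 and 4071 CPM in luminal and 131, 158 and 177 CPM in basal cells (-4.77, SE 0.74, limma adjusted p = 3.8e-06). *Csn1s1* had 3071, 4067 and 2863 CPM against 142, 123 and 134 CPM (-4.62, SE 0.68). *Csn1s2a* differed by -4.68, *Csn3* by -3.96, the fat globule membrane gene *Btn1a1* by -3.99 and the lipid droplet gene *Plin2* by -2.83. None of the 16 genes stood above the mean of W10, M4 and Iw4 at P3.5, in luminal (median -1.28) or basal cells (median -1.88). The medians of all genes were -0.02 and -0.07. Time point, lane and amplification batch cannot be told apart in these values.

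Products known for late pregnancy and lactation were low at P3.5. *Wap*, the whey acidic protein gene, had 2.68, 12 and 13.4 CPM in luminal cells (-2.62, adjusted p = 0.029), and *Lalba*, which encodes alpha lactalbumin, had 1.46, 19.7 and 5.34 CPM (-2.51, adjusted p = 0.01). Neither passed the threshold, *Lalba* by less than the rounding of its p, but edgeR called both. Luminal replicate 4 had the highest level of *Csn2*, *Csn1s2a*, *Csn3*, *Btn1a1*, *Lao1* and *Lalba*. In it the list summed to 19082 CPM, against 10042 and 12148 CPM in replicates 2 and 6. *Glycam1* was not called (-1.22) and had 118 CPM in basal replicate 6, above every luminal library. The summed level in basal cells was 9.1, 6.37 and 10.5% of the luminal level in sorts 2, 4 and 6.

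STAT5, the transcription factor that prolactin activates, binds the letters TTCNNNGAA, which read the same on both strands. They were found in the 250 bases before the start of 3 of the 12 milk gene promoters available (25%), *Csn2*, *Csn1s1* and *Glycam1*, against 7.18% of 27025 promoters. The stretches of the caseins with the largest luminal levels are shown, with the match in capitals. The *Csn2* stretch is chr5:87699426-87699675 on the minus strand of GRCm38.p6, with the match starting 93 bases before the start. The *Csn1s1* stretch is chr5:87665958-87666207 on the plus strand, with the match at 100 bases.
Csn2: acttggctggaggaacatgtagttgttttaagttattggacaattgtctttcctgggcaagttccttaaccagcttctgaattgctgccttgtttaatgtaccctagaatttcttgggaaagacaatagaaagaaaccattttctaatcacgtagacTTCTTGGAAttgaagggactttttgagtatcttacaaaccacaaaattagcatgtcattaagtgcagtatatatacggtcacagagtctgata
Csn1s1: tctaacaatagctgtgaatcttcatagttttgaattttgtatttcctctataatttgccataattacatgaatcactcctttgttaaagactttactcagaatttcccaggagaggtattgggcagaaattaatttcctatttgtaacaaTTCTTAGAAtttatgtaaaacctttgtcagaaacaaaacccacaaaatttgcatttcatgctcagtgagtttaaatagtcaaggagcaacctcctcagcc
The promoter of *Csn1s2a*, whose difference between the cell types was as large, held no match in this window.

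Of 14 luminal lineage genes, 10 were higher in luminal cells and 1 in basal cells (median -3.02). The keratin *Krt18* had 1071, 1353 and 923 CPM in luminal and 50, 108 and 85.1 CPM in basal cells (-3.82, SE 0.47). *Elf5*, a transcription factor of alveolar differentiation, had 127, 116 and 172 CPM against 9.56, 10.4 and 11 CPM (-3.61, SE 0.48). *Foxa1*, which opens chromatin for the oestrogen receptor, differed by -3.48, *Ehf* by -3.61, *Muc1* by -3.91 and *Krt8* by -2.87. Not every gene of the list followed its name. *Gata3* had 69, 85.5 and 91.8 CPM in luminal and 73.6, 103 and 63.5 CPM in basal cells (-0.06, SE 0.26) and *Grhl2* differed by 0.22. *Tfap2c*, an AP-2 transcription factor, was higher in basal cells (2.44, SE 0.34).

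Genes of hormone-sensing luminal cells were higher in luminal cells for 10 of 16 members (median -2.93). The prolactin receptor gene *Prlr* had 710, 871 and 689 CPM in luminal and 35.9, 62.8 and 44 CPM in basal cells (-3.99, SE 0.72). *Esr1*, the oestrogen receptor gene, had 82.3, 103 and 47.9 CPM against 14.8, 12.4 and 12.8 CPM (-2.39, SE 0.32). *Tnfsf11*, which encodes RANKL, had 25.3, 10.2 and 21.2 CPM against 0.622, 0.969 and 1.88 CPM (-3.16, SE 0.62). Without sort 2 it was not called (adjusted p = 0.012). *Cited1*, a coregulator of the oestrogen receptor, differed by -3.36 and was not called when any 1 sort was left out (limma adjusted p 0.017 to 0.086) or without the block (0.016). The progesterone receptor gene *Pgr* was not called, with 39.4, 34.9 and 27.5 CPM in luminal and 24.1, 25.9 and 16.5 CPM in basal cells (-0.60, adjusted p = 0.57). Each of its luminal values was above each basal value. *Calca*, the calcitonin gene, which responds to progesterone, had 190, 72.2 and 141 CPM in luminal and 4.36, 9.54 and 18 CPM in basal cells, but its spread across the libraries kept it from being called by limma (-3.62, SE 1.23, adjusted p = 0.029), and edgeR called it.

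Of 12 luminal progenitor genes, 7 were higher in luminal cells and 1 in basal cells (median -2.60), against 5.57% and 8.29% of all genes, and the basal share was at the background. The receptor tyrosine kinase gene *Kit* had 306, 244 and 292 CPM in luminal and 19.1, 16.6 and 14.9 CPM in basal cells (-3.98, SE 0.53). *Cd14*, a co-receptor for bacterial lipopolysaccharide, differed by -3.96 and the retinaldehyde dehydrogenase gene *Aldh1a3* by -3.35. *Itgb3*, the beta-3 integrin, went the opposite way, with 8.13, 18 and 17.2 CPM in luminal and 67.3, 42.3 and 48.4 CPM in basal cells (1.84, SE 0.50). It was not called when any 1 sort was left out (limma adjusted p 0.012 to 0.17), with a pseudocount of 0.1 (0.014) or with edgeR (0.039).

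Junctions and polarity genes were higher in luminal cells for 19 of 25 members, with none higher in basal cells (median -2.50). *Cldn4*, a claudin of tight junctions, had 526, 681 and 242 CPM in luminal and 17.5, 56.9 and 24.1 CPM in basal cells (-3.89, SE 0.64). The cingulin gene *Cgn* differed by -3.98, *Cldn3* by -3.86, occludin *Ocln* by -3.77 and *Marveld2* by -3.69. *Cdh1*, E-cadherin, had 1483, 1668 and 1171 CPM against 466, 520 and 447 CPM (-1.58), and *Epcam* differed by -2.10. *Tjp1* (-0.77) and the splicing factor gene *Esrp1* (-0.78) stayed under 2-fold. *Cd24a* and *Itgb1*, which encode the antigens of the sort, differed by -1.64 and 0.97, and were used to choose the cells.

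The luminal-higher genes with the largest difference outside the lists ranged from -3.87 to -4.68. They included the membrane mucin *Muc4*, with 180, 311 and 223 CPM in luminal and 8.65, 13.2 and 4.47 CPM in basal cells. The others with a known product were osteopontin *Spp1* (-4.60), the kallikrein-related peptidase *Klk10* (-4.29), the potassium channel *Kcnn4* (-4.18), the nucleoside transporter *Slc28a3* (-4.16), the scaffold gene *Shank2* (-4.16), the gap junction gene *Gjb2* (-4.15), clusterin *Clu* (-3.93) and the serine protease *Tmprss2* (-3.87). *Fcgbp* reached 1476, 2750 and 2033 CPM in luminal cells (-4.0). *Wfdc18* and *Rasef* completed the 12.

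Of 11 Wnt ligands and R-spondins with values, 4 were higher in luminal and 2 in basal cells, against 5.57% and 8.29% of all genes. The other 7 members of the list were not analysed here. *Wnt4*, which relays the progesterone signal, had 130, 105 and 46.4 CPM in luminal and 8.26, 12.1 and 6.06 CPM in basal cells (-3.20, SE 0.62). *Rspo1*, an R-spondin that strengthens Wnt signals, had 186, 110 and 176 CPM against 11.3, 12.2 and 9.67 CPM (-3.68, SE 0.80). It was not called without sort 2 or sort 6 (limma adjusted p = 0.012 and 0.013). *Wnt7b* (-2.81) and *Wnt5b* (-1.26) were luminal as well, the latter not without sort 2 or sort 4 (adjusted p = 0.02 and 0.075). *Wnt6* had 0.163, 0.0697 and 0 CPM in luminal cells, under 3 reads in each library, and 21.4, 22.6 and 30.6 CPM in basal cells (4.57, SE 0.40). *Wnt10a* had at most 0.244 CPM in luminal and 19.3, 40.5 and 35.1 CPM in basal cells (4.74, SE 0.49). *Wnt5a* was not called (1.41, adjusted p = 0.036).

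Of 19 Wnt and R-spondin receptors, 8 were higher in basal cells and none in luminal cells (median 1.14). *Lgr5* had 0.325, 1.18 and 0.636 CPM in luminal and 44.4, 122 and 52.5 CPM in basal cells (5.32, SE 0.54). Its relatives *Lgr6* and *Lgr4*, also receptors of R-spondins, differed by 2.77 and 2.40. *Fzd7* had 32.6, 35.5 and 39.4 CPM against 419, 300 and 273 CPM (3.15, SE 0.40), and *Fzd2*, *Fzd3*, *Ror2* and *Ptk7* were called too. *Fzd2* was not called without sort 4 (limma adjusted p = 0.019). *Ror2* was not called when any 1 sort was left out (0.015 to 0.17), nor with edgeR (0.043), a pseudocount of 0.1 (0.073), median-ratio rescaling (0.011) or no block (0.021). The co-receptor genes *Lrp5* (0.43) and *Lrp6* (0.14) were not.

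Of 20 inhibitors, mediators and targets of the pathway, 10 were higher in basal cells and none in luminal cells (median 1.26). The secreted inhibitor *Wif1* had 0.244, 0.836 and 1.08 CPM in luminal and 278, 206 and 192 CPM in basal cells (7.05, SE 0.44). The inhibitors *Nkd1* and *Nkd2*, which are also Wnt targets, differed by 5.20 and 4.82, *Dkk3* by 4.22 and *Sfrp1* by 1.95. The feedback target *Axin2* had 5.04, 5.09 and 6.61 CPM against 21.7, 24.8 and 21.4 CPM (1.85, SE 0.46). The groups did not overlap, but the call was lost when any 1 sort was left out (limma adjusted p 0.013 to 0.038) or with a pseudocount of 0.1 (0.03). *Rnf43* (1.85) and *Znrf3* (1.5), ligases that remove Frizzled receptors, were also called. *Sfrp1* was not called without sort 4 (limma adjusted p = 0.05). Among transcription factors *Tcf7* differed by 3.08 and *Tcf7l1* by 1.02, while *Tcf7l2* was not called (-0.39) and *Lef1* had at most 0.65 CPM in any library. *Procr* was not called by limma (2.02, adjusted p = 0.012) and was called by edgeR. *Tcf7l1* lay at the threshold. It was not called when any 1 sort was left out (limma adjusted p 0.012 to 0.11), with edgeR (0.012), without the block (0.014) or with median-ratio rescaling, where it differed by 0.99.

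**Figure D4:**
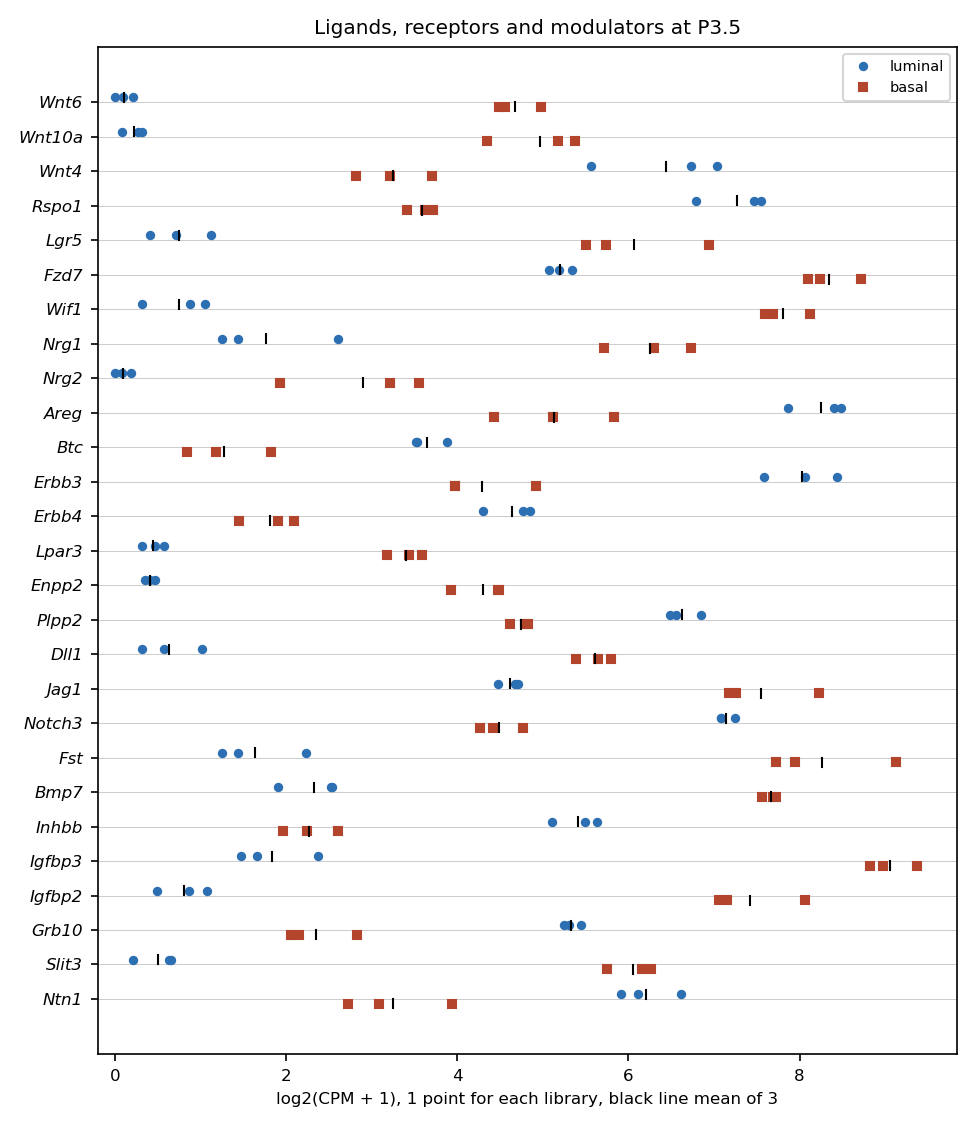
Levels of 27 ligands, receptors and modulators (log2(CPM + 1), horizontal axis) in the 3 luminal (circles) and 3 basal (squares) libraries of P3.5, with the mean as a black line. *Wnt6*, *Wnt10a*, *Nrg1*, *Nrg2*, *Dll1* and *Jag1* are higher in basal libraries and *Wnt4*, *Rspo1*, *Areg*, *Btc*, *Erbb3*, *Erbb4* and *Notch3* in luminal libraries.

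In the EGF family the neuregulin genes *Nrg1* and *Nrg2* were basal, and no other neuregulin gene was called. The neuregulin receptor genes were luminal, as were the other called ligand genes. Of 16 genes, 5 were higher in luminal and 2 in basal cells, against 5.57% and 8.29% of all genes, so that the basal share was near the background. The ligand genes *Areg* (356, 336 and 233 CPM against 20.6, 55.8 and 33.7 CPM) and *Btc* (-2.36) were luminal, with a difference of -3.12 (SE 0.69) for *Areg*. Without sort 2 *Areg* differed by -2.66 and was not called (limma adjusted p = 0.032), and with edgeR *Btc* was not called (0.019). The neuregulin gene *Nrg1* had 1.38, 5.09 and 1.72 CPM in luminal and 77.5, 105 and 51.7 CPM in basal cells (4.48, SE 0.58). *Nrg2* had at most 0.139 CPM in luminal and 10.7, 8.28 and 2.81 CPM in basal cells (2.80, SE 0.35). The receptor genes for neuregulins were luminal. *Erbb3* had 267, 345 and 191 CPM in luminal and 14.7, 29.3 and 14.7 CPM in basal cells (-3.74, SE 0.49), and *Erbb4* differed by -2.82. *Erbb2*, their shared partner, differed by -1.63. *Egfr*, the receptor for amphiregulin, had 74.3, 126 and 72.5 CPM in luminal and 230, 263 and 164 CPM in basal cells. All basal libraries were above all luminal ones, but it was not called (1.28, SE 0.41, adjusted p = 0.02).

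In the Notch pathway 4 of 19 genes were higher in basal and 1 in luminal cells (median -0.11), against 8.29% and 5.57% of all genes, so that the luminal share was near the background. The 3 ligands among them were basal. *Jag2* had 0.975, 1.32 and 0.445 CPM in luminal and 158, 157 and 117 CPM in basal cells (6.26, SE 0.54). *Dll1* had at most 1.02 CPM against 40.9, 54.6 and 49.1 CPM (4.98, SE 0.45), and *Jag1* differed by 2.93. *Lfng*, a glycosyltransferase that modifies Notch receptors, differed by 2.03. The receptor gene *Notch3* had 134, 135 and 151 CPM in luminal and 20.4, 18.3 and 26.3 CPM in basal cells (-2.65, SE 0.45). *Notch1* (-1.09, adjusted p = 0.017) and *Notch2* (-0.92, adjusted p = 0.0068) were lower in every basal library than in its luminal partner but did not pass both thresholds. The target genes *Hey1* (0.41), *Hes1* (-0.39) and *Heyl* (-1.47, adjusted p = 0.042) were not called.

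Lysophosphatidic acid (LPA) is a signalling lipid made outside the cell by autotaxin, sensed by receptors and broken down by lipid phosphatases. Of 10 genes of this axis, 5 were higher in basal and 1 in luminal cells (median 2.21), against 8.29% and 5.57% of all genes. *Enpp2*, which encodes autotaxin, had 0.325, 0.279 and 0.381 CPM in luminal and 21.5, 14.2 and 21.2 CPM in basal cells (3.89, SE 0.85), and it was not called without sort 2 or sort 6 (limma adjusted p = 0.012 and 0.011). The receptor gene *Lpar3* had 0.244, 0.488 and 0.381 CPM against 11, 9.84 and 8.08 CPM (2.95, SE 0.29), and *Lpar5* had at most 0.627 CPM against 7.58, 11 and 9.09 CPM (2.97, SE 0.45). The phosphatase gene *Plpp2* was luminal (-1.88), while *Plpp3* (3.14) and *Plpp1* (3.07) were basal. *Plpp1* shares 25.8% of its exon bases with another gene of the table, so its reads are uncertain. *Lpar1* (1.47), *Lpar2* (-0.10), *Lpar4* (0.92) and *Lpar6* (-0.12) were not called.

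In the TGF beta and BMP pathway 5 of 25 genes were higher in basal cells and 5 in luminal cells, against 8.29% and 5.57% of all genes. *Fst*, follistatin, which binds activins, had 1.38, 3.69 and 1.72 CPM in luminal and 210, 557 and 245 CPM in basal cells (6.62, SE 0.74). *Inhbb*, a subunit of activin and inhibin, was on the luminal side, with 43.9, 33.4 and 48.6 CPM against 3.73, 2.91 and 5.12 CPM (-3.13, SE 0.65). *Bmp7* differed by 5.34, the co-receptor gene *Tgfbr3* by 4.52 and *Ltbp2* by 2.94, whereas *Bmp3* (-2.72), *Bmpr1b* (-1.82), *Tgfb2* (-1.68) and *Ltbp1* (-1.47) were luminal. The TGF beta receptor genes *Tgfbr1* (-0.03) and *Tgfbr2* (0.04) were not called. Without replicate 6, 4 genes of the list were called basal higher and 1 luminal higher. In the same fit 1059 and 652 of all 17078 genes were. *Bmp3* and *Bmpr1b* were not called when any 1 sort was left out (limma adjusted p 0.016 to 0.059 and 0.027 to 0.094) or without the block (0.014 and 0.021), and *Bmpr1b* not with edgeR (0.025) or a pseudocount of 0.1 (0.014) either. Calls were also lost for *Tgfb2* without sort 2 or 6 (0.028 and 0.017), *Ltbp1* without sort 6 (0.019) and *Ltbp2* without sort 4 (0.012).

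The IGF axis was led by binding proteins. Of 14 genes, 5 were higher in basal and 1 in luminal cells, against 8.29% and 5.57% of all genes, and the luminal share was near the background. *Igfbp3* had 1.79, 2.16 and 4.2 CPM in luminal and 451, 504 and 661 CPM in basal cells (7.22, SE 0.47), and *Igfbp2* had 0.406, 1.11 and 0.826 CPM against 132, 141 and 267 CPM (6.61, SE 0.68). *Igfbp4* (4.41), *Igfbp7* (3.74) and the receptor gene *Igf1r* (1.32) followed, *Igf1r* not without sort 2 or sort 4 (limma adjusted p = 0.046 and 0.1) or without the block (0.012). *Igfbp5* had 1890, 2089 and 2042 CPM in luminal and 5542, 4228 and 2380 CPM in basal cells and was not called (0.93, adjusted p = 0.13). *Grb10*, an adaptor that damps insulin and IGF receptor signals, was luminal, with 37, 42.7 and 38.5 CPM against 3.17, 3.43 and 6.13 CPM (-2.99, SE 0.38). In the FGF list 3 of 14 genes (21.4%, against 8.29% of all genes) were higher in basal cells, the feedback inhibitor *Spry1* (2.66), *Fgfr4* (2.26) and *Fgf2* (1.56), the last 2 at under 6 CPM. *Fgf2* was not called without sort 4 or 6 (limma adjusted p = 0.028 and 0.013).

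Of 27 genes of axon guidance and ephrins, 14 were higher in basal and 1 in luminal cells (median 1.57), against 8.29% and 5.57% of all genes, and the luminal share was under the background. The Slit ligand genes *Slit3* (5.56) and *Slit2* (4.42) and their receptor genes *Robo2* (3.89) and *Robo1* (2.10) were all higher in basal cells. *Slit3* had at most 0.572 CPM in luminal and 70.4, 76 and 52.8 CPM in basal cells. The class 3 semaphorin genes *Sema3b* (4.72), *Sema3a* (3.72), *Sema3c* (2.92) and *Sema3d* (2.67), and *Efnb2* (2.30), *Efnb1* (1.57) and *Epha7* (1.99) lay on the same side. *Ntn1*, netrin 1, was luminal, with 59.2, 96.8 and 68.1 CPM against 7.52, 14.4 and 5.63 CPM (-2.96, SE 0.43). Its receptor gene *Neo1* was not called (0.70), while *Unc5b* (1.40) was basal, as was *Ntn4* (3.14). *Efnb1* was not called when any 1 sort was left out (limma adjusted p 0.011 to 0.037). Calls were also lost for *Unc5b* without sort 2 or 6 (0.029 and 0.048), *Robo1* without sort 2 or 4 (0.018 and 0.013), *Epha7* without sort 2 (0.012) and *Sema3d* without sort 4 (0.016).

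None of 26 genes of DNA replication and mitosis was called between the layers by limma or by edgeR, against 13.9% of all genes, and 1 of the 26 had an unadjusted p under 0.05. The median difference was 0.52. *Mki67* had 541, 167 and 627 CPM in luminal and 915, 292 and 476 CPM in basal cells (0.39, SE 0.66), and *Top2a* had 397, 207 and 334 CPM against 593, 466 and 392 CPM (0.66, SE 0.63). Sort 4 had the lowest *Mki67* level in both cell types. The mean over the list was 6.02, 5.14 and 5.88 on log2(CPM + 1) in luminal and 6.41, 5.88 and 6.18 in basal cells, and the basal library was the higher in each sort.

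Both layers stood above the resting gland for these genes. All 26 were higher at P3.5 than the mean of W10, M4 and Iw4 in basal cells (median 2.63) and all 26 in luminal cells (median 1.86), where the medians of all genes were -0.07 and -0.02. *Top2a* was higher by 3.57 in basal and by 2.55 in luminal cells, and *Ccnb1* by 2.75 and 1.88. The difference between these changes was not called for any of the 26 genes by limma or by edgeR, and 1 had an unadjusted p under 0.05. Time point, sequencing lane and amplification batch cannot be told apart in this comparison. Single resting libraries came close, with a list mean of up to 5.58 at M4, above that of luminal replicate 4 at P3.5.

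Genes of the immediate early response can rise while tissue is dissociated. Of 10, 2 were called basal higher (20%), against 8.29% of all genes, and 8 were not called. *Egr1* had 655, 376 and 1353 CPM in luminal and 3896, 2497 and 3972 CPM in basal cells (2.28, SE 0.46), and *Fos* had 225, 85 and 391 CPM against 958, 1029 and 1431 CPM (2.51, SE 0.46). The whole list summed to 2667, 1667 and 4049 CPM in luminal and 7377, 6646 and 9200 CPM in basal cells. The part of handling in other differences was not tested.

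Whether the difference between the layers at P3.5 was particular to early pregnancy was asked with 2 interaction tests in the same model. Against the resting gland, the difference was higher at P3.5 for 12 genes (0.0703%) and lower for 6 (0.0351%), 0.105% together. These calls were not stable. With a pseudocount of 0.1 and with edgeR there were 0 calls (1043 and 1198 genes at an unadjusted p under 0.05), and leaving out a sort left 4 higher and 0 to 3 lower. No list other than the LPA axis, with *Lpar3*, had a called member.

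*Lpar3* encodes a receptor of LPA, as above. In basal cells it averaged 9.65 CPM at P3.5 and 0.855, 1.33 and 2.31 CPM at W10, M4 and Iw4, while luminal cells stayed at or below 0.488 CPM on average in all 4 groups. The basal-luminal difference was larger at P3.5 by 2.12 (SE 0.33, limma adjusted p = 0.00063). In basal cells alone the change was 2.16 and in luminal cells 0.03, although time, lane and amplification batch cannot be told apart in these. Against P14.5, where basal cells averaged 0.702 CPM, the difference was larger by 2.38 (adjusted p = 0.002). Without the P14.5 basal library of sort 5 it was larger by 1.91 and not called (adjusted p = 0.033). Both interaction calls were lost without sort 2 (0.035 and 0.023) or sort 4 (0.012 each), with a pseudocount of 0.1 (0.72 and 0.3) and with edgeR (0.65 and 0.74).

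Other genes with a larger difference were *Lrfn5*, a synaptic adhesion gene, and *Aldh1a7*, an aldehyde dehydrogenase gene. *Lrfn5* had 0 CPM in every luminal library and 25.6, 11.1 and 11.2 CPM in basal cells at P3.5, against basal means of 6.33, 3.38 and 0.664 CPM in the resting groups (larger by 2.12, adjusted p = 0.0069). With luminal libraries at 0, this value rests on the pseudocount. *Aldh1a7* had 5.36, 1.67 and 1.84 CPM in luminal and 17.1, 11.6 and 7.29 CPM in basal cells at P3.5 and at most 1.21 CPM on average in each resting group (larger by 2.14, adjusted p = 0.005). Its close relative Aldh1a1 makes its reads uncertain.

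In the opposite direction stood *Brinp3*, *Luzp2* and *Nrcam*, the last a neuronal adhesion gene. *Brinp3* had 2.43, 4.92 and 1.08 CPM in basal cells at P3.5 and 0 CPM in luminal cells, against basal means of 25.3, 29.7 and 22.3 CPM at W10, M4 and Iw4 (-2.58, adjusted p = 0.00043). With a pseudocount of 0.1 the value was -1.61 (limma adjusted p = 0.79), and with edgeR its sign turned, to 0.83 (adjusted p = 0.89). *Luzp2* had 3.39, 3.58 and 2.81 CPM in basal cells against 12.4, 10.6 and 12.8 CPM (-1.47, adjusted p = 0.0056). *Nrcam* had 1.64, 1.86 and 0.938 CPM in basal cells against 10.4, 3.97 and 19.5 CPM (-2.53, adjusted p = 0.0028). From the resting gland to P3.5 the 3 genes changed by -2.90, -1.58 and -1.97 in basal cells. In luminal cells they changed by -0.32, -0.11 and 0.55. Time, lane and amplification batch are inseparable in these values.

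**Figure D5:**
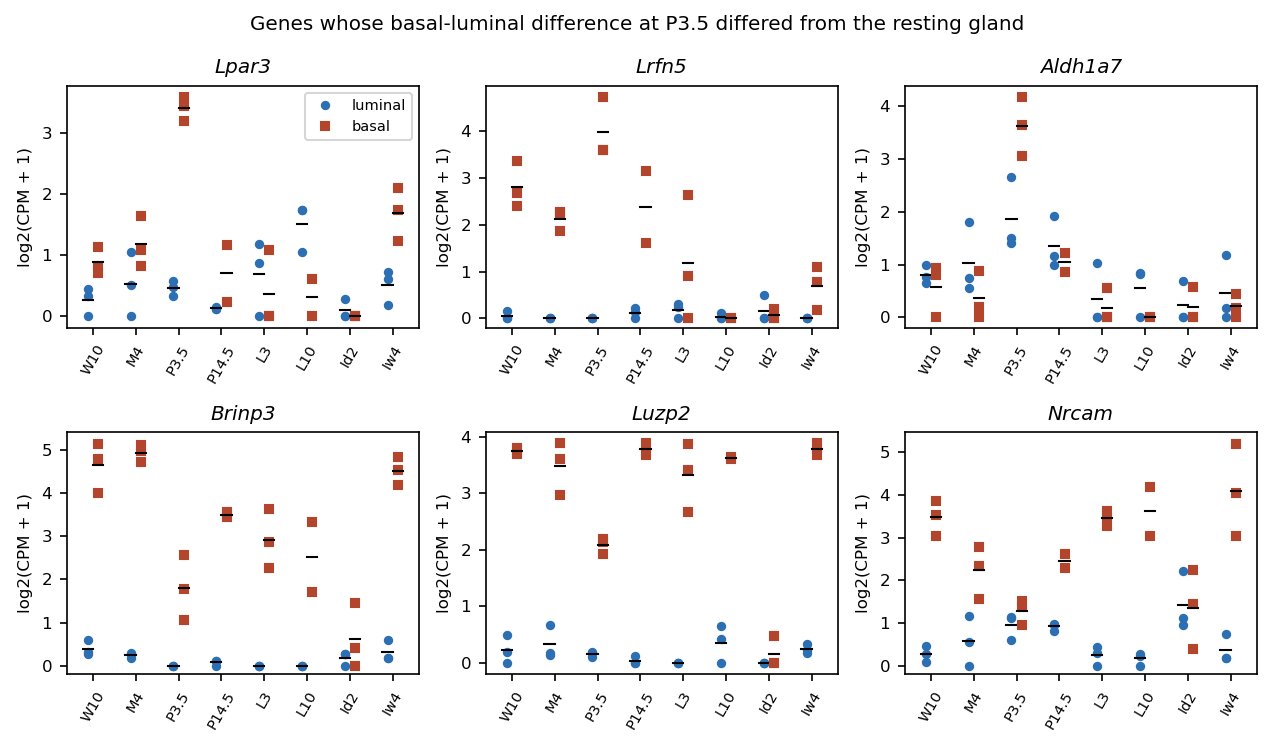
Levels of 6 genes (log2(CPM + 1), vertical axis) at 8 time points (horizontal axis), 1 point for each luminal (circle) or basal (square) library and the mean as a black line. Basal *Lpar3* is highest at P3.5, with a mean of 9.65 CPM, and basal *Brinp3* and *Luzp2* are lower at P3.5 than at W10, M4 and Iw4.

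Against P14.5, which shared the amplification batch but not the lane, the difference was higher at P3.5 for 28 genes (0.164%) and lower for 68 (0.398%), 0.562% together. The 2 basal libraries of P14.5 stood apart in stromal RNA. Their fibroblast markers summed to 12174 and 6061 CPM. The sums were 348 to 804 CPM in basal cells at P3.5 and 41.2 to 103 CPM in luminal cells of P14.5. Pericyte markers of these 2 libraries summed to 1279 and 1114 CPM, against 69.3 to 128 CPM in basal cells at P3.5. Their endothelial markers summed to 896 and 381 CPM, against 21.5 to 76.5 CPM, and their adipocyte markers to 268 and 98.6 CPM, against 1.71 to 14.6 CPM. In luminal cells of P14.5 the endothelial sum was 40.5 to 381 CPM. The basal library of sort 5 also stood apart in luminal RNA. Its milk genes summed to 56103 CPM, against 6900 CPM in the basal library of sort 3 and 174165 CPM in the luminal library of its own sort, and its luminal lineage genes to 1630 CPM against 714 CPM. Leaving out this library left 20 higher and 55 lower genes, of which 13 and 35 were called with it, and leaving out that of sort 3 left 11 and 13, of which 8 and 9 were. These alternatives were chosen after seeing the data, and the lone basal library is assumed to vary like the other groups. Of 24 named genes 12 kept the call without sort 5 and 5 without sort 3. Genes lower at P3.5 were led by *Apod* (-6.63), *Olfml2b* (-5.61), *Egflam* (-5.48), the cytokine *Il33* (-5.37), *Col8a1* (-5.31) and the scavenger receptor *Scara5* (-5.29). *Apod* had 6.05, 10.3 and 37.2 CPM in basal cells at P3.5 and averaged 583 CPM at P14.5. *Scara5* and *Col8a1* moved in luminal cells too, since their luminal means were 26.3 and 106 CPM at P3.5 and 4.28 and 6.79 CPM at P14.5. The median interaction was -4.17 over the fibroblast list, -2.61 over the pericyte list and -1.80 over the endothelial list. The part of stromal, endothelial and luminal RNA in these calls was not tested.

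List members among them were *Grb10* (-4.26), *Id3* (-4.26), *Heyl* (-4.13), *Notch3* (-3.23), *Dll4* (-3.0), *Fgfr2* (-2.84) and *Esr1* (-2.22), with the pericyte genes *Abcc9* (-4.19) and *Kcnj8* (-3.54). For *Fgfr2* and *Esr1* the luminal level differed most. *Fgfr2* averaged 170 CPM in luminal cells at P3.5 and 15.7 CPM at P14.5, with 271 and 171 CPM in basal cells, and *Esr1* averaged 77.7 and 18.1 CPM in luminal cells, with 13.3 and 15.7 CPM in basal cells. *Notch3* averaged 140 and 122 CPM in luminal cells but 21.7 and 174 CPM in basal cells.

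Genes with a larger difference at P3.5 than at P14.5 included *Gnai1*, an inhibitory G protein subunit (3.66, adjusted p = 0.0008), the receptor gene *Adgrg2* (3.40), *Glb1l2* (3.23), *Gprin3* (3.23), the amino acid transporter *Slc7a5* (2.99), the synaptic vesicle gene *Sv2b* (2.90) and *Lgr4* (2.47). *Slc7a5* had 145, 241 and 134 CPM in luminal and 894, 953 and 632 CPM in basal cells at P3.5, while at P14.5 the luminal mean was 336 CPM and the basal mean 202 CPM. *Lgr4* averaged 34.3 CPM in luminal and 186 CPM in basal cells at P3.5 and 153 and 146 CPM at P14.5. Only *Slc7a5* among these genes, and *Egflam*, *Grb10* and *Olfml2b* among the lower ones, kept the call under every alternative run. *Glb1l2* fell to 1.04 in edgeR (adjusted p = 0.94) and was not called with a pseudocount of 0.1 (0.31) or without sort 2 (0.02). In edgeR 4 higher and 50 lower genes were called, and leaving out a sort of P3.5 left 6 to 12 higher and 9 to 20 lower.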

How the data were processed

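RNA of sorted basal and luminal cells was amplified with a kit that does not mark strand and sequenced. The authors aligned the reads with GSNAP to NCBI Build 37.1, counted reads per gene with htseq-count, removed genes with very many reads or with values that stayed low, and deposited CPM on an effective library size, a normalised signal, for 17078 genes and 46 libraries. The deposited signal was taken as CPM. Its columns do not all sum to the same total, as plain CPM would, and the planned test was kept. An outlying P14.5 basal library was not analysed here. Gene symbols were matched for 16897 identifiers. Genes whose exons overlap another gene may share reads.

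Values were analysed as log2(CPM + 1), with a pseudocount of 1, in limma 3.58.1 (R 4.3.3) with a mean-variance trend, 1 mean for each of 16 conditions and the sort as a random block (consensus correlation 0.179). P-values were adjusted by the Benjamini-Hochberg method over all genes, and genes were called at 2-fold or more and an adjusted p under 0.01. The deviations of the basal and luminal libraries of a sort correlated at 0.23, 0.36 and 0.27 across genes. The labels give both libraries of a number the same sort date, and the study's methods sort both cell types from 1 pool of glands. Besides animals and date, the gates were adjusted slightly from sort to sort. P-values measure the spread between sorts pooled over all 16 conditions of the series, and not that of the P3.5 sorts alone. R2 between replicates was 0.958 to 0.975 in luminal and 0.954 to 0.963 in basal cells, and 0 pairs were identical.

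Interactions set the P3.5 difference against the mean difference at W10, M4 and Iw4 or against that at P14.5. List members could be named, as could the 12 unlisted called genes of largest difference in each direction whose within-sort differences all exceeded 2-fold and the 6 in each direction of each interaction, all with a mean of at least 10 CPM in 1 of the groups compared. Members and lists were chosen with earlier results of these data known. Whole reads were recovered from the steps of the values (within 0.01 of a read) for 45 libraries, and edgeR 4.0.16 was run on these as an alternative. Other alternatives were a pseudocount of 0.1, a filter at a mean of 1 CPM, median-ratio rescaling, no block and a fit of the 6 libraries alone. Further ones were no libraries of involution day 2 (Id2), an FDR of 0.05, leaving out each sort and leaving out each P14.5 basal library. The fits were tested on simulated data. A few list members are not reported here by name.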

Additional observations from a re-analysis of the deposited data

Results flagged for a closer look

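The basal-luminal difference at P3.5 differed from that of the resting gland, by the interaction test in limma, for 6 named genes. It was larger for *Aldh1a7* (2.14), *Lpar3* (2.12) and *Lrfn5* (2.12), and smaller for *Brinp3* (-2.58), *Nrcam* (-2.53) and *Luzp2* (-1.47).

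By the same test the difference at P3.5 was larger than at P14.5 for *Gnai1* (3.66), *Adgrg2* (3.40), *Glb1l2* (3.23), *Gprin3* (3.23), *Slc7a5* (2.99), *Sv2b* (2.90), *Lgr4* (2.47) and *Lpar3* (2.38). It was lower for *Apod* (-6.63), *Olfml2b* (-5.61), *Egflam* (-5.48), *Il33* (-5.37), *Col8a1* (-5.31), *Scara5* (-5.29), *Grb10* (-4.26), *Id3* (-4.26), *Abcc9* (-4.19), *Heyl* (-4.13), *Kcnj8* (-3.54), *Notch3* (-3.23), *Dll4* (-3.0), *Fgfr2* (-2.84), *Esr1* (-2.22) and *Luzp2* (-1.80). The part of stromal, endothelial and luminal RNA in the P14.5 basal libraries was not tested. Groups of 3 libraries were not searched for outlying samples.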

How the results depend on the processing

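The count of basal-higher genes at P3.5 kept within 1.5 times 1415 under every alternative (993 to 1059 without a sort, 1241 without the replicate block, 1612 in the 6 libraries alone with the block as a fixed term), and the luminal-higher count did except without sort 2 or sort 4 (578 to 652 without a sort, 792 without the block, 1135 in the 6 libraries alone). Higher and lower interaction calls against the resting gland came to 6 and 3 without the block, 0 and 0 with a pseudocount of 0.1, 0 and 0 with edgeR, 19 and 14 at an FDR of 0.05, and 4 and 0 to 3 without a sort. A filter at a mean of 1 CPM left 2 higher, and leaving out the libraries of involution day 2 (Id2) gave 13 lower. Against P14.5 they came to 12 and 21 without the block, 103 and 258 at an FDR of 0.05, 6 to 12 and 9 to 20 without a sort, and 11 to 20 and 13 to 55 without a P14.5 basal library, with 17 higher at a pseudocount of 0.1, 4 higher in edgeR and 195 lower without the *Id2* libraries. The cause was not tested. The resting-gland interaction of *Brinp3* turned from -2.58 to 0.83 in edgeR. Of 192 named genes called between the cell types, 154 kept the call under every alternative and 0 reversed. Another 17 named genes that were not called became so under at least 1 alternative. EdgeR called *Calca*, *Col1a1*, *Col3a1*, *Lalba*, *Procr*, *Rgs5* and *Wap*, and other settings, mostly the 6 libraries alone, called *Avpr1a*, *Egflam*, *Egfr*, *Heyl*, *Il33*, *Itga6*, *Itgb1*, *Lpar1*, *Notch1* and *Wnt5a*. None of the 6 genes named for the resting gland kept it throughout, and of the 24 for P14.5 *Egflam*, *Grb10*, *Olfml2b* and *Slc7a5* did. Genes under 3 reads in a cell type have no measurable fold.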
